A study of Mus musculus with 35 samples.

Results

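The integrated stress response genes described here were Atf4, Atf3, Atf5, Ddit3, Gadd45a, Gadd45b, Gadd45g, Trib3, Asns and Chac1, which are stress genes known either as targets of nonsense-mediated RNA decay (NMD) or as genes that follow the transcription factor ATF4. They were picked by name, and all 10 were found among the 24411 gene rows counted in each of 3 sample types. The study asked what the loss of SMG6, the endonuclease of NMD, does to the RNA of male germ cells. Long RNA was sequenced from pachytene spermatocytes and from round spermatids in 3 Smg6-cKO and 3 control libraries per cell type, and from isolated chromatoid bodies (CBs), the RNA-rich granules of round spermatids, in 3 cKO and 4 control libraries. The small RNA libraries of the series were not used here.

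The cKO mice were Smg6(fx/fx);Ngn3Cre+, in which Cre from the Ngn3 promoter, active in spermatogonia from soon after birth, removes exon 9 of Smg6 in the germline, while the somatic cells of the testis keep the gene. Controls were littermates without Cre, Smg6(fx/fx) or Smg6(fx/wt), so they too carried floxed alleles. All mice were adult and of a mixed C57Bl/6J and SV129 background. The cell types were enriched on a BSA gradient and not sorted, the sources differ on how many testes made up a sample, and each CB sample was immunoprecipitated with an antibody to DDX4 from the testes of several pooled mice. Spermatocytes and round spermatids were described as coming from the same testes. Their libraries carry the same numbers, but nothing says that same-numbered libraries share testes. Where libraries shared animals, p-values measure only the spread between libraries. Spermatocyte and round spermatid libraries held polyadenylated RNA, whereas CB libraries held total RNA made with another kit, so levels in CBs are compared only among CBs.

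In the integrated stress response, kinases that sense misfolded protein, missing amino acids, viral RNA or heme deficiency phosphorylate the translation factor eIF2α. Most translation then falls, while mRNAs with upstream open reading frames (uORFs), such as those of Atf4, Atf5 and Ddit3, are translated better. ATF4 then switches on genes for amino acid supply, redox balance and, with CHOP (the product of Ddit3), cell death. Several of these mRNAs, Atf4 and the Gadd45 family among them, are known as NMD targets in other cells, and phosphorylated eIF2α is itself known to slow NMD.

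The members' transcript structures differed in the features that mark an mRNA for NMD. On GENCODE vM21 (GRCm38), taking for each gene the transcript with the longest coding region, 5 of 10 members had an upstream ATG against 51.9% of the 15140 genes tested in round spermatids with such a transcript, and 4 of 10 had a uORF by the study's criteria as read here (30 nt or longer, with a purine at -3 or a G after the ATG, and not running in frame into the main reading frame) against 33.3%. The place of the G and the in-frame rule are a reading of the study's wording, which differs. Atf4 (chromosome 15, 80255184 to 80257541, plus strand) held 3 upstream ATGs and 2 uORFs in a 5′UTR of 594 nt, where the median gene had 170 nt. Ddit3 (chromosome 10, 127290774 to 127296288, plus strand) held 2 and 2, Atf5 (chromosome 7, 44812256 to 44816658, minus strand) 2 and 1, and Atf3 (chromosome 1, 191170296 to 191218039, minus strand) 1 and 1. Asns (chromosome 6, 7675169 to 7693254, minus strand) had 1 upstream ATG and no uORF, and Gadd45a, Gadd45b, Gadd45g, Trib3 and Chac1 had neither. Of these, Gadd45a lies on chromosome 6 (67035096 to 67037457, minus strand), Gadd45b on chromosome 10 (80930073 to 80932204, plus strand), Gadd45g on chromosome 13 (51846678 to 51848468, plus strand), Trib3 on chromosome 2 (152337422 to 152344032, minus strand) and Chac1 on the same chromosome (119351229 to 119354381, plus strand). No member had an exon junction 50 nt or more after its stop codon, which only 0.343% of the genes had, and none had a 3′UTR over 1500 nt, a length that 32.7% had. The longest member 3′UTR was the 1186 nt of Atf3 and the shortest the 81 nt of Atf4, around a median of 874 nt over the genes.

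The members that share a promoter element were looked up as well, since ATF4 pairs with C/EBP proteins on the letters TGATGNAA, the C/EBP-ATF response element. RefSeq promoters on GRCm38.p6, 250 bases before to 50 bases after the start, were found for all 10 members (11 promoters, as Atf5 has 2). The element, searched on both strands, was present in the promoters of 5 of 10 members and in 3.97% of all 32851 promoters. In Trib3 it lay after the start, and in the other 4 it lay before the start, in these 30-base windows, read along each gene's strand with the match in capitals, reversed and complemented where the match is on the other strand:
Asns, chr6:7693214-7693243, minus strand: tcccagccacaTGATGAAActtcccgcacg
Atf3, chr1:191183425-191183454, minus strand: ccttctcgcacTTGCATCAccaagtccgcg
Chac1, chr2:119351038-119351067, plus strand: cttccctgccgTTGCATCActcctgccagg
Gadd45g, chr13:51846563-51846592, plus strand: tgccgcctcatTTGCATCAgaaagcgggcg
The windows show Asns with the match on its own strand, 23 bases before the start, and the other members of the group with the match on the opposite strand, from 101 to 193 bases before it. The RefSeq starts used for Atf3 and Asns lie inside the longer GENCODE genes, and so do both windows, which are before the start only by RefSeq. The Trib3 match lies before the start of the GENCODE gene and is after the start only by RefSeq. The 5 genes with the element did not all move one way in the knockout, as described below: Atf3, Gadd45g and Trib3 rose in round spermatids, Asns fell, and Chac1 did not pass the test. The cAMP response element TGACGTCA and the endoplasmic reticulum stress response element were in none of the members' promoters, against 1.79% and 0.119% of all promoters. A match is a match of letters only, and binding was not measured.

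Libraries of spermatocytes and round spermatids held 38129415 to 49940226 counts on genes and transposable elements and CB libraries 3965541 to 16699210, so low members were measured least firmly in CBs. Smg6 itself held, in CPM (counts per 1000000 after TMM scaling), 173 to 180 in cKO and 104 to 162.5 in control spermatocytes. For round spermatids these values were 182 to 195 and 133 to 217, and for CBs 155.5 to 194 and 175 to 198. Since they cover the whole gene and the deletion is of exon 9, they do not check the genotype. Markers of other cells moved with genotype: the 10 late spermatid markers all fell in cKO in all 3 sample types, to a summed 1963 to 2035 CPM from 28634 to 37725 CPM in round spermatids, and in bulk RNA fewer cells of a type and less RNA per cell cannot be told apart. Round spermatid markers also fell, 10 of 10 in cKO round spermatids and CBs and 3 of 10 in spermatocytes, in round spermatids from a summed 4515 to 4787 CPM in control to 1295 to 1536 CPM. Of 10 spermatocyte markers 4 rose there (928 to 997.5 CPM against 653 to 694 CPM), of 8 spermatogonia markers 5 rose and 1 fell (74.5 to 116 CPM against 42.0 to 52.9 CPM) and of 5 erythroid markers 4 rose (65.0 to 240 CPM against 20.8 to 24.2 CPM), whereas in spermatocytes 1 of 4 erythroid markers tested fell (1.5 to 3.23 CPM against 10.3 to 19.9 CPM). Over all features 38% rose and 33.3% fell in cKO round spermatids, 13.3% and 13% in spermatocytes, and 15.4% and 17.7% in CBs. The 4 of 10 spermatocyte markers were thus near the share of all features that rose in round spermatids. Of 14 macrophage markers 13 rose in cKO round spermatids; without Aif1, which alone held 434 to 535 CPM in the controls and fell, the others summed in round spermatids to 259 to 430 in cKO against 32.8 to 51.5 in control, in spermatocytes to 55.6 to 84.8 against 37.7 to 44.1 and in CBs to 12.1 to 64.7 against 9.41 to 15.3 (Aif1 was set aside after its values were seen). Leydig marker sums in cKO, against control, were 32.0 to 337 against 8.37 to 9.145 for round spermatids, 572 to 1174.5 against 116 to 397 for spermatocytes and 29.7 to 306 against 10.5 to 43.9 for CBs, while Sertoli markers were higher in cKO round spermatids (29.0 to 95.0 against 25.25 to 27.7) and lower in cKO spermatocytes (37.2 to 70.6 against 101 to 247). Peritubular and endothelial markers summed to between 7.80 and 18.9 in all 12 of these libraries and to 16.0 to 26.95 in cKO against 14.8 to 18.05 in control CBs. In CBs 3 of 6 spermatogonia markers tested rose (25.0 to 81.8 against 15.03 to 24.3) and 2 of 7 Sertoli markers did (14.4 to 31.3 against 10.5 to 17.4). The part of these cells in the results below was not tested.

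Levels are given in CPM, scaled over the 12 spermatocyte and round spermatid libraries together and over the 7 CB libraries by themselves. Fold changes are log2 fold changes (log2FC) of edgeR's quasi-likelihood test, fitted on the libraries of each comparison with a scaling of their own, with the standard error (SE) and the Benjamini-Hochberg adjusted p over all features tested. A gene was called at an adjusted p of at most 0.05, and the study's own further limit of 1.5 on the size of log2FC is given beside the counts.

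**Figure D1:**
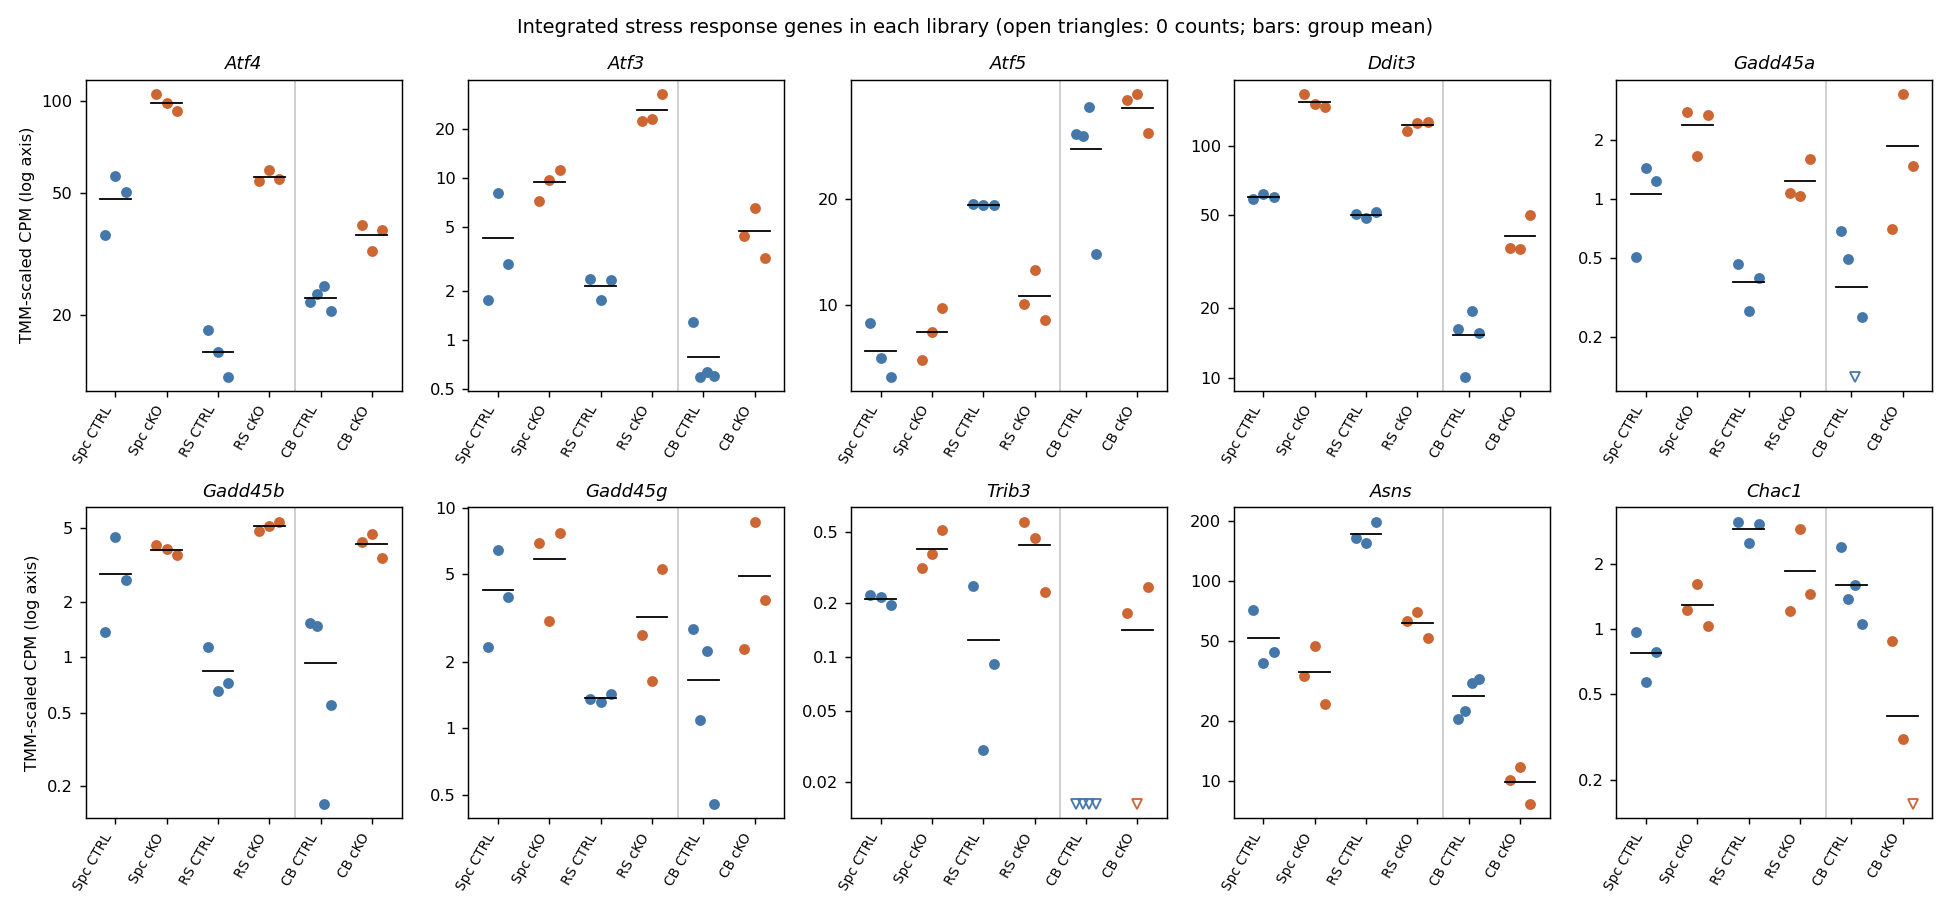
TMM-scaled CPM (log axis) of each member in every library of control (CTRL, blue) and cKO (orange) spermatocytes (Spc), round spermatids (RS) and chromatoid bodies (CB, scaled apart, right of the grey line); points are libraries, black bars are group means and open triangles at the foot are libraries with 0 counts. Ddit3 is higher in all cKO than in all control libraries of each sample type, Asns is lower in all cKO than in all control libraries of RS and of CB, and Trib3 is near the floor throughout.

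Per kilobase of exon, Ddit3 was the most abundant member in cKO cells and Trib3, a pseudokinase that curbs ATF4 and CHOP, the least abundant everywhere. In control spermatocytes the mean levels ran from Ddit3 at 35.1 CPM per kb through Atf4 (20.3) and Asns (18.9), whose libraries overlapped, to Atf5 (3.70) and Gadd45g (3.61), then Atf3 (1.97), Gadd45b (1.78), Gadd45a (0.599), Chac1 (0.473) and Trib3 (0.0989). From Atf5 to Gadd45b each gene's libraries overlapped those of the next, as did those of Gadd45a and Chac1. In control round spermatids the order was another: Asns led at 63.55 ± 8.35 CPM per kb (SD, n = 3), followed by Ddit3 (29.4), Atf5 (9.68), Atf4 (6.42), Chac1 (1.78), Gadd45g (1.17), Atf3 (1.00), Gadd45b (0.529), Gadd45a (0.215) and Trib3 (0.0581), with no overlap between neighbours. In cKO round spermatids Ddit3 led at 71.6 ± 3.49, Atf4 (24.0) and Asns (22.6) overlapped in second place, and Atf3 came next at 12.1.

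More of these mRNAs were called higher in cKO in round spermatids than in spermatocytes, as were more of all features. In round spermatids 7 of 10 members rose in cKO (38% of 18504 features did) and 2 fell (33.3% did), and the median log2FC of the members was 1.5, against 0.10 over all features. The count of 7 rested on all libraries: without any 1 of them it was 5 or 6, since Gadd45g, Trib3 or both were then not called or not tested. In spermatocytes 2 rose (13.3% of 18323 features) and none fell (13%), with a median of 0.74 against -0.01. In CBs 4 of the 8 members with enough counts rose (15.4% of 15079 features) and 2 fell (17.7%), with a median of 1.06 against 0.01. With the limit of 1.5 on log2FC, 5 rose and none fell in round spermatids (15.1% and 10.5% of features), none passed in spermatocytes (3.27% and 4.84%), and 2 rose and 1 fell in CBs (5.06% and 5.56%). These counts include Trib3 in round spermatids and Chac1 in CBs, for which only libraries of the higher group reached the filter of 10 counts. Scaling by library size alone moved the share of called features that were higher from 53.3% to 75.6% in round spermatids and from 46.5% to 35.8% in CBs, and left 7 members higher and 1 lower in round spermatids.

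**Figure D2:**
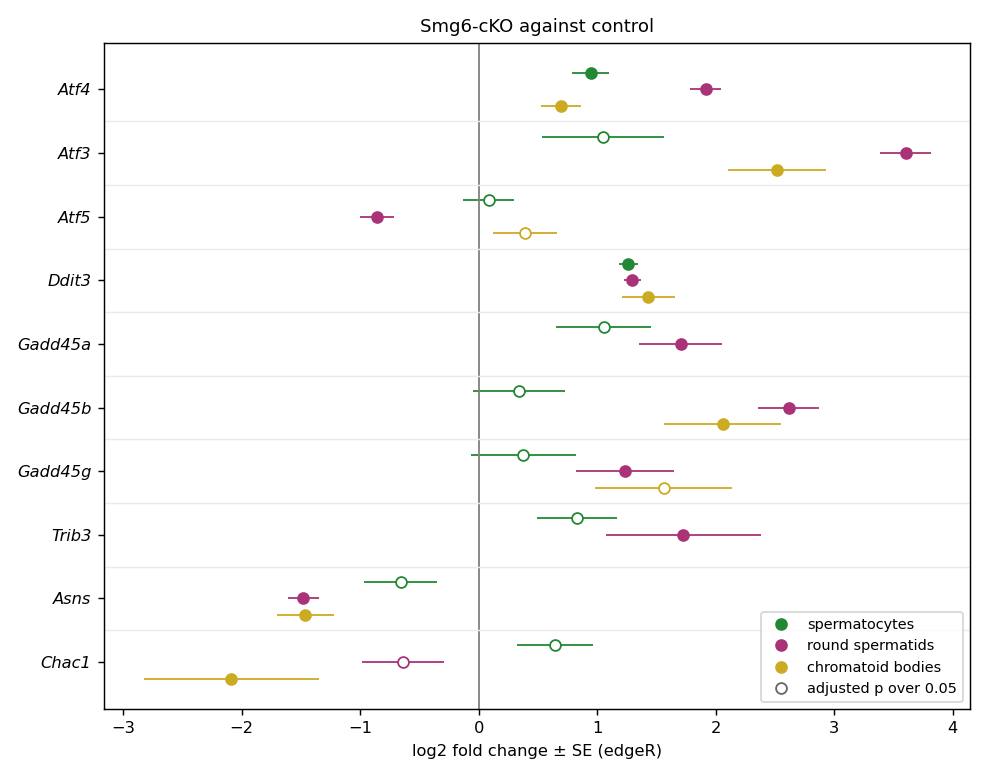
log2FC of cKO against control for each member (x axis, edgeR, bars are SE) in spermatocytes (green), round spermatids (purple) and chromatoid bodies (yellow); filled points have an adjusted p of at most 0.05, and Gadd45a and Trib3 had too few counts to be tested in CBs. Ddit3 lies near 1.3 to 1.4 in all sample types, whereas Atf3 runs from 1.05 in spermatocytes to 3.60 in round spermatids, and Asns is negative in all of them.

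Atf4, the factor at the head of the response, rose in cKO in all sample types. Its level was 105.5, 98.3 and 92.6 CPM in the cKO and 36.5, 56.9 and 50.4 CPM in the control spermatocyte libraries. In round spermatids it was 54.7, 59.6 and 55.5 CPM in cKO and 17.8, 15.1 and 12.5 CPM in control, and in CBs 39.2, 32.2 and 37.8 CPM against 22.0, 23.3, 24.8 and 20.6 CPM. Every cKO library was above every control library of its sample type, as 29.4%, 39.9% and 16.3% of features were in the same order. The log2FC was 0.94 for spermatocytes (SE 0.15, adjusted p = 0.0074), 1.91 for round spermatids (SE 0.13, adjusted p = 7.3e-06) and 0.69 for CBs (SE 0.17, adjusted p = 0.0069). Scaling the CBs by library size alone took the last call away (0.57, adjusted p = 0.10).

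Ddit3, which encodes the cell death factor CHOP, rose in all sample types. Its cKO spermatocyte libraries held 167, 151 and 146 CPM and its controls 58.65, 61.9 and 59.9 CPM. Round spermatids held 116, 125 and 127 CPM in cKO and 50.7, 48.8 and 51.6 CPM in control. CBs held 36.25, 35.9 and 50.2 CPM in cKO and 16.1, 10.1, 19.3 and 15.6 CPM in control. The groups were apart in all sample types, and Ddit3 rose 2.40-fold for spermatocytes (log2FC 1.26, SE 0.08, adjusted p = 0.00022), 2.45-fold for round spermatids (1.30, SE 0.07, adjusted p = 2.3e-06) and 2.69-fold for CBs (1.43, SE 0.22, adjusted p = 0.00055). By library size alone these log2FC were 1.29, 1.85 and 1.31. Mars, which encodes an aminoacyl-tRNA synthetase, overlaps Ddit3 on the opposite strand and was counted apart from it by strand, and a second short gene model under the symbol Ddit3 lies on the same strand within it.

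Atf3, a stress-induced repressor that is also an immediate early gene, had the largest rise of the members tested in round spermatids and in CBs. Round spermatids held 22.5, 22.9 and 32.9 CPM in cKO and 2.38, 1.77 and 2.34 CPM in control, a 12.1-fold rise (log2FC 3.60, SE 0.21, adjusted p = 3e-06). CBs held 4.40, 6.51 and 3.19 CPM in cKO and 1.29, 0.594, 0.639 and 0.603 CPM in control, a 5.71-fold rise (2.51, SE 0.42, adjusted p = 0.00076) that rests on 21 to 26 counts per cKO and 4 to 15 per control library. In spermatocytes the groups overlapped, at 7.24, 9.69 and 11.2 CPM in cKO and 1.77, 8.02 and 2.95 CPM in control, and Atf3 was not called (1.05, SE 0.51, adjusted p = 0.17). The second control library was the high one, and without it the log2FC was 1.89 (adjusted p = 0.017). That library was also the highest control for Gadd45a, Gadd45b and Gadd45g and for the sum of 16 immediate early genes (514 CPM against 304 and 347), with Leydig markers at 397 against 116 and 321, and the part of these in the result was not tested.

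Atf5, a factor related to ATF4 and translated in the same way, went against it in round spermatids. Its controls held 19.4, 19.2 and 19.3 CPM and its cKO libraries 10.05, 12.6 and 9.03 CPM, all lower (as 36.2% of features were), for a log2FC of -0.86 (SE 0.14, adjusted p = 0.00093). This fall is relative to the scaling: by library size alone it was -0.30 (adjusted p = 0.09), while the median of all features moved from 0.10 to 0.65. Spermatocytes did not show it, with 6.95, 8.33 and 9.79 CPM in cKO, 8.85, 7.04 and 6.23 CPM in control and a log2FC of 0.08 (SE 0.21, adjusted p = 0.80). In CBs it was 38.4, 40.0 and 30.8 CPM in cKO and 30.6, 30.3, 36.6 and 14.0 CPM in control, so the groups overlapped, and the log2FC was 0.39 (SE 0.27, adjusted p = 0.29).

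The Gadd45 genes encode small proteins that act in growth arrest, DNA repair and stress kinase signalling, and all 3 rose in cKO round spermatids. Gadd45b had the largest rise of the family, with 4.83, 5.15 and 5.45 CPM in cKO and 1.13, 0.660 and 0.730 CPM in control (6.13-fold, log2FC 2.62, SE 0.26, adjusted p = 5e-05). Gadd45a held 1.03 to 1.59 CPM in cKO and 0.270 to 0.470 CPM in control (log2FC 1.70, SE 0.35, adjusted p = 0.0026). Gadd45g held 2.66, 1.64 and 5.28 CPM in cKO and 1.32 to 1.43 CPM in control (1.24, SE 0.41, adjusted p = 0.026). The groups did not overlap for any of them, but Gadd45g was the least firm: without the third cKO library its log2FC was 0.69 (adjusted p = 0.060), and without control library 1, 2 or 3 it was 1.22, 1.20 or 1.26 (adjusted p = 0.071, 0.074 and 0.065). The cKO library with most Gadd45g was also the one with most Leydig marker RNA (337 CPM against 87.9 and 32.0 in the others).

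None of the Gadd45 genes was called in spermatocytes. Gadd45b held 4.08, 3.85 and 3.59 CPM in cKO spermatocytes and 1.37, 4.47 and 2.64 CPM in control, and Gadd45g 6.95, 3.06 and 7.67 CPM against 2.34, 6.43 and 3.93 CPM, so that the second control library reached above or into the cKO range for both (log2FC 0.34 and 0.37, adjusted p = 0.55 and 0.57). Gadd45a was higher in every cKO than in every control library (1.65 to 2.77 against 0.508 to 1.43 CPM) but was not called (1.05, SE 0.40, adjusted p = 0.093), while with DESeq2 it was (1.06, adjusted p = 0.050). In CBs Gadd45b rose from 0.160 to 1.54 CPM in control to 3.44 to 4.65 CPM in cKO (2.06, SE 0.49, adjusted p = 0.0068). CB counts of Gadd45g overlapped between the groups (1.56, SE 0.58, adjusted p = 0.053), and those of Gadd45a, 4, 11 and 12 in cKO and 8, 5, 0 and 5 in control, were under the filter. Gadd45g passed with DESeq2 (1.60, adjusted p = 0.024), by library size alone (1.4, adjusted p = 0.015), with TMM over genes (1.59, adjusted p = 0.047) and without control library 1 (2.05, adjusted p = 0.033) or 3 (1.76, adjusted p = 0.050) or cKO library 1 (1.95, adjusted p = 0.016). It was further from the threshold without control library 2 (1.41, adjusted p = 0.12) or 4 (1.17, adjusted p = 0.11) or cKO library 2 (1.03, adjusted p = 0.22). With no filter on counts Gadd45g and Gadd45a both passed in CBs (log2FC 1.52 and 2.10, adjusted p = 0.017 and 0.019).

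Trib3 was at the limit of detection. Round spermatids held 28, 22 and 12 counts in cKO and 9, 1 and 3 in control (log2FC 1.72, SE 0.65, adjusted p = 0.042), and the groups overlapped in CPM (0.230 to 0.569 against 0.0300 to 0.249). No control library reached the filter of 10 counts, so Trib3 was tested there only through the cKO libraries, where it was higher. Without control library 1 the log2FC was 2.74 (adjusted p = 0.014). The call was lost without control library 2 (1.27, adjusted p = 0.11) or 3 (1.54, adjusted p = 0.12), with DESeq2 (1.69, adjusted p = 0.098) and with no filter on counts (1.73, adjusted p = 0.052). Spermatocytes held 12, 18 and 27 counts in cKO and 10, 12 and 10 in control (0.83, SE 0.34, adjusted p = 0.11), and in CBs the 7 libraries held between 0 and 2 counts.

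Asns and Chac1, enzyme genes that ATF4 is known to switch on, were not called higher in cKO in any sample type. Asns, which encodes asparagine synthetase, fell in cKO round spermatids, where the control libraries held 165.4, 156.4 and 199.7 CPM and the cKO libraries 63.5, 70.2 and 51.8 CPM. In CBs it was 10.03, 11.8 and 7.61 CPM in cKO and 20.5, 22.3, 31.0 and 32.4 CPM in control. The groups were apart in both, and the log2FC was -1.48 for round spermatids (SE 0.13, adjusted p = 3.1e-05) and -1.46 for CBs (SE 0.24, adjusted p = 0.00076). By library size alone the fall in round spermatids was smaller (-0.92, adjusted p = 0.00018). Spermatocyte libraries overlapped, with 33.6, 47.6 and 24.4 CPM in cKO and 72.0, 39.0 and 44.4 CPM in control (-0.66, SE 0.31, adjusted p = 0.15).

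Chac1, which encodes an enzyme that degrades glutathione, was low throughout. CBs held 5, 1 and 0 counts in cKO and 28, 14, 10 and 21 in control, and Chac1 was called lower (log2FC -2.09, SE 0.74, adjusted p = 0.044). No cKO library reached the filter of 10 counts, so Chac1 was tested there only through the control libraries, where it was higher. The call was lost without cKO library 2 (-2.0, adjusted p = 0.10) or 3 (-1.20, adjusted p = 0.20) and without control library 1 (-1.81, adjusted p = 0.12), 2 (-2.15, adjusted p = 0.064) or 3 (-2.05, adjusted p = 0.066), while without cKO library 1 the log2FC was -3.92 (adjusted p = 0.0079). In round spermatids it was 1.22, 2.90 and 1.45 CPM in cKO and 3.15, 2.52 and 3.07 CPM in control (-0.64, SE 0.34, adjusted p = 0.13). The second cKO library was the high one: without it the log2FC was -1.07 (adjusted p = 0.0047), without the first -0.36 (adjusted p = 0.38), and by library size alone -0.09 (adjusted p = 0.83). In spermatocytes it was 1.03 to 1.625 CPM in cKO and 0.572 to 0.971 CPM in control, higher in all 3 cKO libraries but not called (0.64, SE 0.32, adjusted p = 0.17).

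The comparison of round spermatids with spermatocytes shows how these mRNAs change from meiosis to the haploid phase, in control and in cKO. These comparisons use the same libraries as those of genotype and are not independent of them. In control, 5 members fell (38.9% of 18050 features did) and 3 rose (36.1%), and 4 and 2 of them passed 1.5 (16.6% and 15.9%). Gadd45b fell by 1.86 on the log2 scale (SE 0.46, adjusted p = 0.0074), Atf4 by 1.78 (SE 0.195, adjusted p = 0.00021), Gadd45g by 1.75 (SE 0.36, adjusted p = 0.0034), Gadd45a by 1.59 (SE 0.44, adjusted p = 0.013) and Ddit3 by 0.37 (SE 0.07, adjusted p = 0.0020). The cell types did not overlap for any of these, nor for the 3 that rose (37.5% of features were lower and 41.8% higher without overlap). Chac1 rose with a log2FC of 1.79 (SE 0.26, adjusted p = 0.00056), Asns with 1.63 (SE 0.24, adjusted p = 0.00060) and Atf5 with 1.27 (SE 0.16, adjusted p = 0.00031). Atf3 was not called (-1.09, SE 0.52, adjusted p = 0.094), and its value rested on single spermatocyte control libraries: it was -1.47 (adjusted p = 0.0091) without the first and -0.27 (adjusted p = 0.44) without the second, and by library size alone -1.53 (adjusted p = 0.029). Trib3 was not called either (-0.84, SE 0.59, adjusted p = 0.23), with -1.85 (adjusted p = 0.024) without the first and -0.40 (adjusted p = 0.50) without the second round spermatid control library.

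In cKO, 3 members fell from spermatocytes to round spermatids (25.4% of 18712 features) and 2 rose (18.1%), none of them past 1.5 (3.69% lower and 3.09% higher). The cell types did not overlap for 3 lower (29.9%) and 3 higher members (27.6%). Atf4 fell by 0.84 (SE 0.08, adjusted p = 0.00040), Ddit3 by 0.37 (SE 0.08, adjusted p = 0.0083) and Gadd45a by 0.98 (SE 0.32, adjusted p = 0.039). Atf3 rose with a log2FC of 1.43 (SE 0.23, adjusted p = 0.0025) and Asns with 0.78 (SE 0.23, adjusted p = 0.030). The Asns call was lost without spermatocyte cKO library 1 (0.80, adjusted p = 0.091) or 3 (0.58, adjusted p = 0.055) and without round spermatid cKO library 1 (0.78, adjusted p = 0.080) or 2 (0.67, adjusted p = 0.077). The Gadd45a call was lost on leaving out each of these 4 libraries (-0.87 to -0.80, adjusted p = 0.10 to 0.14), by library size alone (-0.83, adjusted p = 0.067) and with no filter (-0.91, adjusted p = 0.053), and the Ddit3 call without spermatocyte cKO library 1 (-0.26, adjusted p = 0.058). By library size alone Ddit3 had -0.79 in control (adjusted p = 0.00010) and -0.23 in cKO (adjusted p = 0.021), while the median of all features was -0.47 and 0.15. Gadd45b, Gadd45g, Atf5, Trib3 and Chac1 were not called, at 0.38, -0.92, 0.29, 0.01 and 0.48. However, Gadd45g passed without round spermatid cKO library 3 (-1.46, adjusted p = 0.038) and with same-numbered libraries as a block (-0.98, adjusted p = 0.011). Gadd45b passed by library size alone (0.53, adjusted p = 0.040). Markers of other cells moved with the stage too. Leydig markers fell from spermatocytes to round spermatids in 7 of 7 genes in control and 6 of 7 in cKO. Sertoli markers fell in 10 of 10 in control (median log2FC -3.18) and in none of 10 in cKO, where none rose either (0.34). Erythroid markers rose in 4 of 5 in control (4.18) and 5 of 5 in cKO (6.45), and macrophage markers in 4 of 14 and 13 of 14. The part of these cells in the stage results was not tested.

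**Figure D3:**
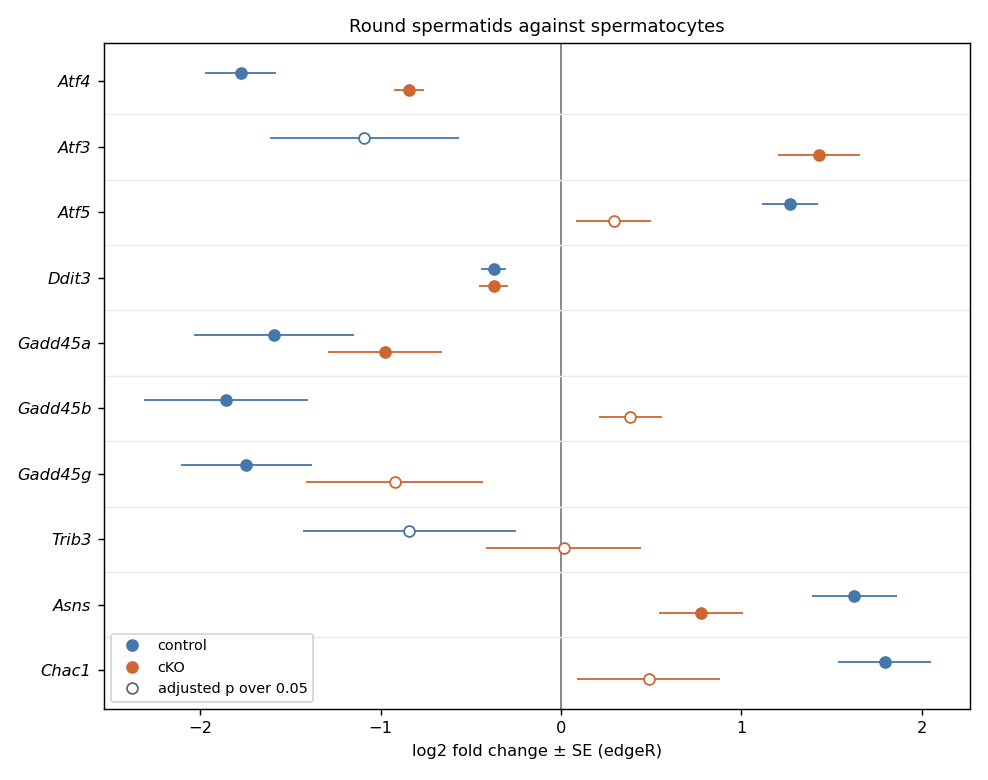
log2FC of round spermatids against spermatocytes for each member (x axis, edgeR, bars are SE) in control (blue) and cKO (orange); filled points have an adjusted p of at most 0.05. Atf3 lies at -1.09 in control and 1.43 in cKO, Ddit3 at -0.37 in both (-0.79 and -0.23 by library size alone), and Asns and Chac1 lie to the right in control and nearer to 0 in cKO.

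Whether genotype acted differently in the 2 cell types was tested by the interaction term of a fit over the 12 libraries. The rise in cKO was larger in round spermatids than in spermatocytes for Atf3 (difference of log2FC 2.45, SE 0.62, adjusted p = 0.0095), Gadd45b (2.17, SE 0.50, adjusted p = 0.0064) and Atf4 (0.86, SE 0.22, adjusted p = 0.011), so 3 members were called in this direction (19.4% of 19192 features). Atf5 (-1.05, SE 0.25, adjusted p = 0.0071) and Chac1 (-1.40, SE 0.48, adjusted p = 0.038) were called in the other (21.3% of features). Past 1.5 were 2 members in the positive direction (8.12%) and none in the negative (2.26%). For Ddit3 the difference was -0.08 (SE 0.11, adjusted p = 0.56), for Asns -0.93 (SE 0.36, adjusted p = 0.059), and for Gadd45a, Gadd45g and Trib3 0.54, 0.75 and 0.79 (adjusted p = 0.44, 0.38 and 0.41). Asns passed with TMM over genes (-0.99, adjusted p = 0.049) and with same-numbered libraries of a genotype as a block (-0.94, adjusted p = 0.025). Other lists had interaction calls as well: 10 of 10 Sertoli markers were called in the positive direction (median 3.53), as were 8 of 14 macrophage markers (1.62), 4 of 5 erythroid markers (2.2) and 12 of 16 immediate early genes (2.2), while 7 of 10 round spermatid markers were called in the negative (-0.95). The part of these in the members' differences was not tested.

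These interaction values depend on the scaling. With library size alone the median of all features moved from -0.12 to 0.52, and 93.6% in place of 47.6% of the called features were positive. Ddit3 then had a difference of 0.57 (adjusted p = 0.00047), Atf5 -0.42 (adjusted p = 0.21), Chac1 -0.76 (adjusted p = 0.22) and Asns -0.29 (adjusted p = 0.53). A change of scaling moves all features by nearly the same amount, so it does not bear on how the members differed from that median or from each other. Leaving out the libraries numbered 3 in all groups took away all 5 calls (Atf3 2.69, adjusted p = 0.059; Atf4 0.70, 0.14; Gadd45b 2.06, 0.086; Atf5 -0.70, 0.14; Chac1 -1.34, 0.18), leaving out number 2 those of Atf4 (0.67, adjusted p = 0.12) and Gadd45b (1.52, 0.069), with Atf3 at 1.58 (0.044), and leaving out number 1 that of Chac1 (-1.33, 0.13).

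Counts per transcript showed which annotated mRNAs carried the reads. The members had 28 transcripts in the table, none with the NMD biotype of the annotation. Of those tested, 10 of 20 rose in cKO round spermatids and 9 fell (38.9% and 36% of 57133 transcripts), 4 of 23 rose in spermatocytes and none fell (16.1% and 12.5%), and 3 of 10 rose and 3 fell in CBs (17.8% and 18.1%), where a filter of 10 in place of 20 counts gave 5 and 7. The Atf4 transcript in the table, ENSMUST00000109605, stood at 2395 ± 94.6 normalized counts in cKO and 625 ± 110 in control round spermatids (mean ± SD, n = 3 each; log2FC 1.94, SE 0.13, adjusted p = 1.3e-05). For Ddit3, the coding ENSMUST00000026475 and ENSMUST00000139091 and the intron-retaining ENSMUST00000134686 rose alike in round spermatids, at 1.33, 1.32 and 1.29, and in spermatocytes, at 1.26, 1.27 and 1.29. For Asns, the 7 transcripts with 50 or more normalized counts fell by 1.39 to 1.55 in round spermatids. Since read pairs that match several transcripts were shared equally among them, likeness between transcripts of a gene is partly built into these counts.

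The other genes of the pathway were read from 6 lists, against the same shares of all features as the members. These were 38% higher and 33.3% lower in round spermatids, 13.3% and 13% in spermatocytes, and 15.4% and 17.7% in CBs. The sensors and switches of the response, 15 genes that take in the eIF2α kinases, the eIF2α phosphatase subunits, eIF2B, eIF2α itself (Eif2s1) and the kinase modulators Dnajc3, Gcn1l1 and Impact, numbered 8 up and 3 down in cKO round spermatids, with a median log2FC of 0.49. Ppp1r15a (GADD34), the stress-induced phosphatase subunit that ends the response, rose from 3.01 ± 1.32 CPM to 19.5 ± 5.45 CPM (log2FC 2.70, SE 0.33, adjusted p = 0.00015). Eif2b1, a subunit of the eIF2 exchange factor, rose by 2.33 on the log2 scale (SE 0.12, adjusted p = 1.3e-06) and Eif2ak3 (PERK), the kinase of the endoplasmic reticulum, by 2.00 (SE 0.23, adjusted p = 0.00012). Eif2b4 (-0.78), Eif2ak2 (PKR, -0.57) and Eif2s1, the gene of eIF2α (-0.51), fell, but by library size alone none of these was called (-0.23, -0.01 and 0.05, adjusted p = 0.052, 0.97 and 0.51). In spermatocytes none rose and only Eif2ak2 fell (-1.02, adjusted p = 0.0030), and in CBs 4 of 15 rose, led by Ppp1r15a (1.96, adjusted p = 0.0018), Eif2ak3 (1.91, adjusted p = 0.043) and Impact (0.99, adjusted p = 0.039), and Eif2ak2 fell (-0.56, adjusted p = 0.038). By library size alone Impact (0.85, adjusted p = 0.11) and Eif2ak2 (-0.69, adjusted p = 0.065) were not called in CBs.

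Genes of amino acid supply other than Asns mostly rose in cKO round spermatids. Of 20 genes for amino acid synthesis and transport, 15 rose and 1 fell there, with a median log2FC of 1.12. Gpt2, which makes alanine, rose with a log2FC of 3.06 (SE 0.58, adjusted p = 0.0017), Slc1a4, a carrier of neutral amino acids, with 2.97 (SE 0.35, adjusted p = 0.00013) and Pck2 with 2.10 (SE 0.45, adjusted p = 0.0035), all from at most 1.41 CPM in control. Slc7a11, the cystine carrier, fell (-1.99, SE 0.41, adjusted p = 0.0026). In CBs 6 of 16 rose and none fell, led by Gpt2 (2.60), Pck2 (2.28) and Slc7a5 (2.09), and in spermatocytes Slc1a4 (1.49, adjusted p = 0.029) and Aldh18a1 (0.98, adjusted p = 0.011) rose while Phgdh, the entry enzyme of serine synthesis, fell (-1.30, adjusted p = 0.020).

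The next list held aminoacyl-tRNA synthetase genes, which load tRNAs and lie under ATF4, and Xpot, the gene of a tRNA exporter. Of these 13 genes, 12 were called higher in cKO in round spermatids, 6 in spermatocytes and 9 in CBs, and none was called lower. Xpot was among those that rose in round spermatids (0.68, adjusted p = 0.0011) and CBs (0.46, adjusted p = 0.045). Yars rose in spermatocytes from 35.2 ± 2.63 CPM to 80.5 ± 5.05 CPM (log2FC 1.09, SE 0.10, adjusted p = 0.0011), in round spermatids from 17.5 ± 6.08 CPM to 66.1 ± 8.66 CPM (1.93, SE 0.23, adjusted p = 0.00014) and in CBs with a log2FC of 1.28 (SE 0.19, adjusted p = 0.00033). Iars rose with 1.06, 1.18 and 1.25 in the same order (adjusted p = 0.0023, 2e-05 and 0.0047), Mars in spermatocytes with 1.00 (adjusted p = 0.015), and Tars in round spermatids with 1.37 (adjusted p = 0.00011) and in CBs with 1.20 (adjusted p = 0.0014). The 13 genes summed in round spermatids to 865 to 924 CPM in cKO against 582 to 598 CPM in control.

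Other stress regulators under ATF4 or CHOP did not move one way. Of 18 tested in round spermatids, 10 rose and 5 fell. Stc2 (4.29, SE 0.76, adjusted p = 0.0013), Trib2 (3.62, SE 0.66, adjusted p = 0.0014) and Cebpb (2.82, SE 0.50, adjusted p = 0.0012) rose the most, but from 0.0286, 0.0873 and 0.172 CPM in control. At such levels the control libraries could not pass the count filter by themselves, so these genes were tested through the cKO libraries, where they were higher. Herpud1, a gene of endoplasmic reticulum protein degradation, fell from 299.5 ± 49.05 CPM to 31.9 ± 4.03 CPM (-3.22, SE 0.15, adjusted p = 8.4e-07), and it was lower in cKO spermatocytes (-0.58, adjusted p = 0.040) and CBs (-0.93, adjusted p = 0.0055) too. Tnfrsf10b, a death receptor gene (-1.30, adjusted p = 0.0078), and Vldlr, a lipoprotein receptor gene (-0.95, adjusted p = 0.013), also fell in round spermatids, though not by library size alone (-0.73 and -0.39, adjusted p = 0.075 and 0.23). Cebpb rose in all sample types, with 2.29 in spermatocytes and 2.91 in CBs (adjusted p = 0.045 and 0.00045). In spermatocytes 5 of 19 rose (13.3% of features did), Stc2 (1.96) and Trib2 (1.5) among them, and 1 fell (13%). In CBs 3 of 14 rose (15.4% of features did), Ddit4 (1.8) and Nfe2l1 (1.06) among them, and 1 fell (17.7%).

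The IRE1 and ATF6 arms of the unfolded protein response, which run beside PERK, were measured beside it. In round spermatids 12 of 18 genes rose and 3 fell, with a median log2FC of 0.56. Xbp1, the factor made by IRE1 splicing, rose with 1.89 (SE 0.26, adjusted p = 0.00029) and the chaperone gene Hyou1 with 1.52 (SE 0.15, adjusted p = 4.7e-05), followed by Atf6 (0.95, adjusted p = 0.00044), while Creld2 (-0.97), Dnajb9 (-0.83) and Manf (-0.58), genes that endoplasmic reticulum stress is known to induce, fell. By library size alone these were -0.41, -0.28 and -0.02, and Manf was not called (adjusted p = 0.77). In spermatocytes 4 rose (13.3% of features did), among them Atf6b (0.60), Hyou1 (0.46) and Atf6 (0.43), and 3 fell (13%), Edem1 (-0.79), Creld2 (-0.39) and Dnajb9 (-0.32). In CBs 5 of 17 rose, led by Xbp1 (1.56, adjusted p = 0.0038), Ern1 (1.05) and Calr (0.98).

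Immediate early genes, which share induction by fast stress signals with Atf3, had the highest median of these lists in round spermatids. There 13 of 16 rose and 3 fell, with a median log2FC of 3.06, led by Myc (4.58, SE 0.56, adjusted p = 0.00016), Ier3 (3.62, SE 0.31, adjusted p = 2.3e-05) and Fos (3.58, SE 0.44, adjusted p = 0.00016); Jund (-1.01), Klf4 (-0.68) and Nr4a1 (-0.67) fell. By library size alone these were -0.46, -0.12 and -0.12, and Klf4 and Nr4a1 were not called (adjusted p = 0.14 and 0.42). Fos went from 9.04 ± 1.69 CPM in control to 107 ± 67.5 CPM in cKO. In CBs 10 of 14 rose, led by Ier2 (3.10), Fos (2.57) and Junb (2.43), and in spermatocytes 3 of 16 did, Ier3 (1.46), Fos (1.25) and Dusp1 (1.13). Their summed level in the cKO round spermatid libraries, 754.5, 663 and 1197 CPM, followed the same order as the Leydig marker sum (87.9, 32.0 and 337 CPM), and the part of other cells in it was not tested.

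**Figure D4:**
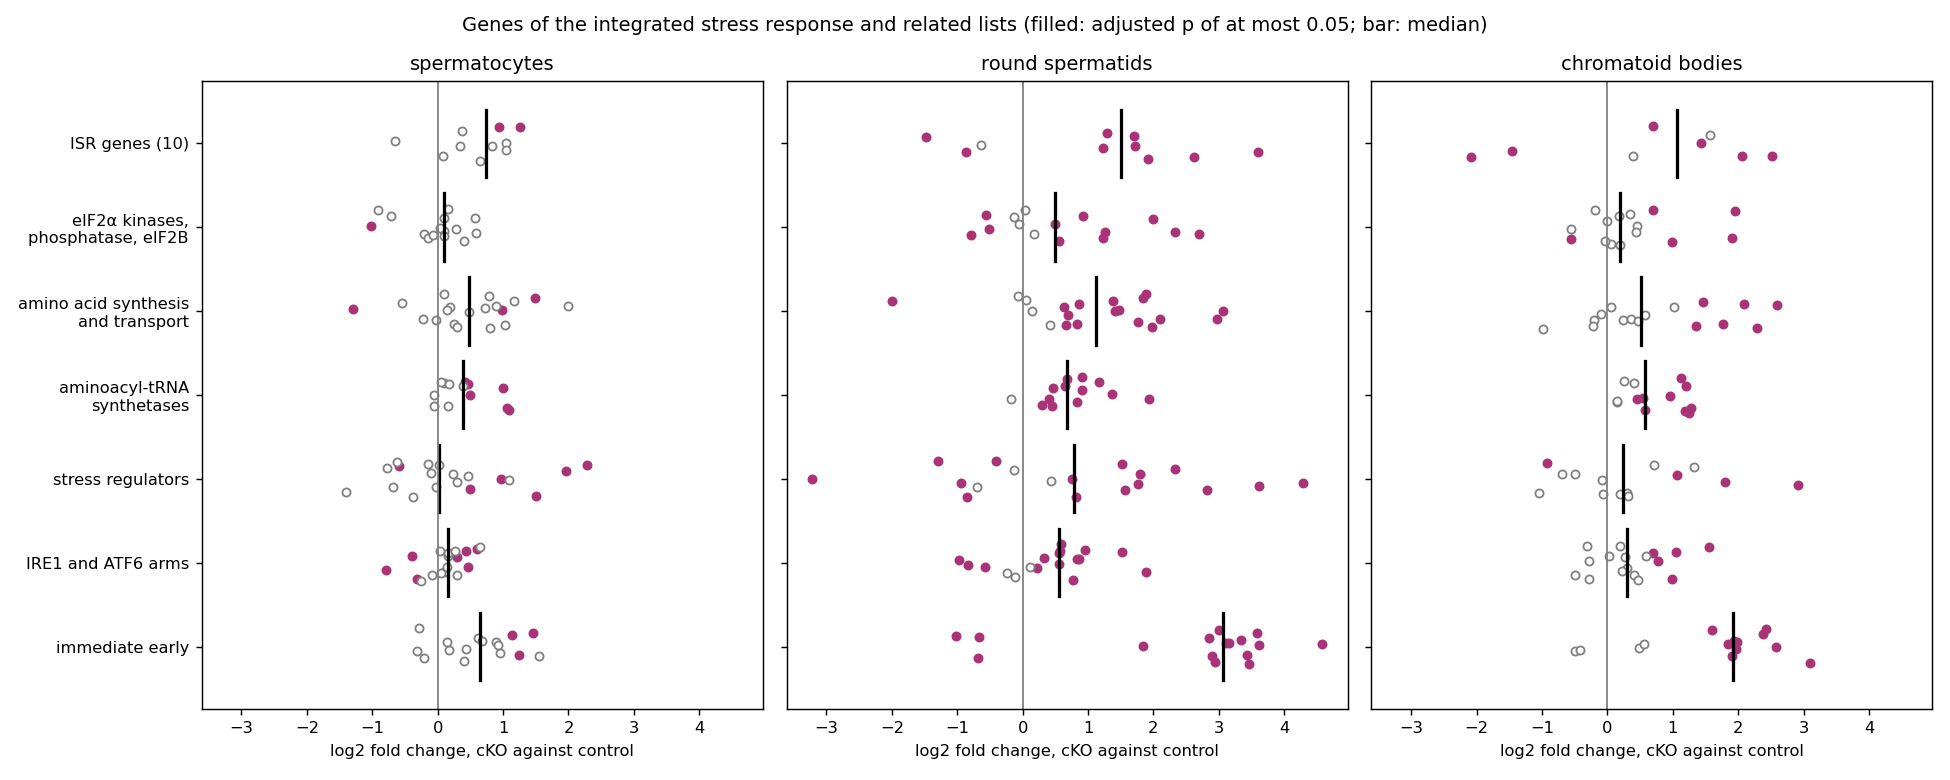
log2FC of cKO against control (x axis) for each tested gene of the 10 integrated stress response (ISR) genes and of 6 related lists, in spermatocytes, round spermatids and chromatoid bodies; filled points have an adjusted p of at most 0.05, black bars are list medians, and points are spread at random in height. The first related list also holds Eif2s1, Dnajc3, Gcn1l1 and Impact and the synthetase list Xpot; the synthetase list has medians of 0.38, 0.68 and 0.57, the immediate early genes have the highest median in round spermatids (3.06) and CBs (1.92), and the median of the ISR genes is 1.5 in round spermatids.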

How the data were processed

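Gene and transposable element read counts per library were deposited by the authors for spermatocytes, round spermatids and CBs, made with cutadapt 2.8, STAR 2.7.1a and TEtranscripts in reverse-stranded mode on GRCm38. Transcript counts came with the authors' featureCounts 2.0.1, which shared read pairs matching several transcripts equally, so these expected counts were rounded to whole numbers. The authors tested their counts with DESeq2; their own fold changes were not used.

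Here, genes and transposable element subfamilies that reached 10 counts (transcripts, 20) in 3 libraries or more were fitted with edgeR 4.0.16 (TMM scaling, quasi-likelihood test, R 4.3.3), and p-values were adjusted by Benjamini-Hochberg over all features tested. The SE is the size of log2FC divided by the square root of F. The interaction was fitted on the 12 germ cell libraries. Libraries held 3965541 to 49940226 counts, and their number limits the precision of each group. The gene fits of genotype and of the interaction were tested on simulated data. Alternatives were scaling by library size, TMM over genes, DESeq2 1.42.0, no count filter, a replicate block, leaving out each library, and summed transcript counts.

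The members and lists were chosen with earlier results of these data known. All members are named; of each other pathway list, in the comparisons of genotype, the called genes with the largest log2FC, up to 3 in each direction. The rule also covered the comparisons between cell types and the interaction, whose list genes are named only where a scaling turned their sign, and it left out the marker lists, given by counts and sums. Xpot, Dnajc3 and Gcn1l1 are named to say what a list holds.

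Same-numbered libraries of the groups correlated in their deviations from the group means by -0.18 to 0.56 and did not all exceed 0.1, so the numbers were not taken as pairs. Between spermatocytes and round spermatids, numbers 1, 2 and 3 had -0.04, 0.56 and 0.28 in cKO and -0.16, -0.14 and -0.18 in control. Pairs of this kind enter only the replicate block, and the main fits leave them out. Spermatocyte and round spermatid replicates carried the numbers of the labels. CB libraries were numbered in the order of their column names. These CB numbers do not all match those in the column names and are not tied to the sample names. No libraries were duplicates.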

Additional observations from a re-analysis of the deposited data

Results flagged for a closer look

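The highest control CB library held 1.287 CPM of Atf3, far from the other 3 libraries (0.594 to 0.639 CPM), and stood out by Dixon's test for 4 values. Chance flags about 1 in 20 groups, and 9 members had values to test.

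The genotype effect on log2 scale differed between round spermatids and spermatocytes by 2.45 for Atf3, 0.86 for Atf4, -1.05 for Atf5, 2.17 for Gadd45b and -1.40 for Chac1, each by the interaction term of edgeR's quasi-likelihood test (adjusted p = 0.0095, 0.011, 0.0071, 0.0064 and 0.038). The Atf5 and Chac1 differences were not called when libraries were scaled by size alone.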

How the results depend on the processing

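Of the members' values, 567 kept their direction and their side of the threshold across the alternatives, 36 lost the call, 18 gained one and 9 turned sign. The named genes of the other lists were chosen as called, so they could only lose calls, and 178 of their values did. Another 7 turned sign, all by library size alone, which moves all features nearly alike.

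Scaling by library size alone left 1 member lower in round spermatids and 0 lower in the interaction. It moved the share of calls that were higher from 53.3% to 75.6% in round spermatids, from 46.5% to 35.8% in CBs, from 48.1% to 32.7% and from 41.5% to 55.7% for round spermatids against spermatocytes in control and cKO, and from 47.6% to 93.6% in the interaction, and for transcripts from 51.9% to 74.5% in round spermatids and from 49.5% to 12.3% in CBs. Under it Eif2s1 in round spermatids turned from -0.51 to 0.051, Gcn1l1 and Eif2b4 between the control cell types from 0.40 and 0.31 to -0.025 and -0.11, and in the interaction Ddit3 from -0.079 to 0.57, Eif2s1 from -0.41 to 0.24, Gcn1l1 from -0.41 to 0.24, Dnajb9 from -0.62 to 0.020 and Manf from -0.60 to 0.041.

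Leaving out 1 library at a time gave 5 to 6 members higher and 2 to 3 lower in round spermatids, 2 to 3 higher in spermatocytes, 4 to 5 higher and 1 to 2 lower in CBs, and 1 to 2 higher and 1 to 4 lower for round spermatids against spermatocytes in cKO. For the interaction the 4 libraries of 1 number were left out together, which gave 0 to 3 higher and 0 to 2 lower. Atf5 in spermatocytes ranged from -0.041 to 0.25, below 0 without control library 3 (-0.032) or cKO library 3 (-0.041). Trib3 between the cKO cell types ranged from -0.24 to 0.35, with -0.066 without spermatocyte cKO library 1, -0.24 and -0.069 without round spermatid cKO library 1 and 2, and it was -0.027 with the replicate block. In the interaction Ddit3 ranged from -0.16 to 0.044, above 0 without the libraries numbered 1, and Gadd45a from -0.020 to 1.27, below 0 without those numbered 2.

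With the replicate block the members higher and lower numbered 2 and 0 in spermatocytes, 7 and 2 in round spermatids, 3 and 5 and then 2 and 4 between the cell types in control and cKO, and 3 and 3 in the interaction. It added the calls of Gadd45g between the cKO cell types (-0.98, adjusted p = 0.011) and of Asns in the interaction (-0.94, adjusted p = 0.025). No block could be fitted in CBs, whose table columns and sample names carry different numbers. A transcript filter of 10 counts gave 5 higher and 7 lower in CBs. The cause of these changes was not tested.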
